A study of Mus musculus with 4 samples.

Results

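The 10 mouse genes followed here were Etl4, Wdfy3, Dnhd1, Ndc1, Tmtc2, Rgl1, Ankrd60, Acot7, Gm14152 and Ccdc175. In each, a listed intron held a smaller share of the intronic fragments of its gene in Tdrd6-/- than in Tdrd6+/- diplotene cells. The listed intron was not in every gene the only lowered intron. In Tmtc2 another intron was also called lower, and in Gm14152 other introns had lower estimates without a call in the main fit. The genes and their listed introns were chosen from a list of introns with strongly lowered usage in these same libraries. The values of the listed introns, and the calls given for them, thus describe the choice and are no evidence beyond it. The 10 genes were taken from 37718 gene rows, and their 10 listed introns from 232 introns of these genes and 207562 introns of all 24963 genes that have introns in the files. What the choice did not use were the counts of the genes, exons and exon-exon junctions.

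Each sample was total RNA, depleted of ribosomal RNA, from testicular germ cells at 20 days post partum. The cells were isolated on magnetic beads by human CD4 (hCD4), which these mice express from the Tdrd6 promoter. The paper describes such preparations as mostly diplotene cells, and also counted secondary spermatocytes and round spermatids in them. There were 2 Tdrd6+/- samples, with a copy of Tdrd6 still in place, and 2 Tdrd6-/- samples, without functional Tdrd6, and each was a pool of at least 4 mice. Tdrd6 itself was counted 33220 and 39322 times in the Tdrd6+/- samples and 359 and 400 times in the Tdrd6-/- samples. Depth was 45030505, 45218328, 47221554 and 43778449 tallied fragments (Tdrd6+/- replicates 1 and 2, then Tdrd6-/- replicates 1 and 2, the order of all lists of 4 values below). In CPM (counts scaled to the library total), the 6 late prophase markers other than Tdrd6 summed to 5425, 5335, 5808 and 6810, higher in both Tdrd6-/- samples. Most of this sum was Ldhc alone, at 3575, 3686, 4132 and 5006 CPM. Ldhc was not called (log2 fold change 0.25 ± 0.14, SE, adjusted p = 0.45, edgeR), so the sum does not speak for the 6 markers as a set. Of the 6, Sycp1, which codes for a protein of the synaptonemal complex, was called higher (log2 fold change 0.60 ± 0.16, SE, adjusted p = 0.047, edgeR). Piwil1, which codes for a PIWI protein, was called lower (-0.44 ± 0.13, SE, adjusted p = 0.077, edgeR). Of the markers of other cells, those of Sertoli cells summed to 28.0 to 38.3 CPM and those of Leydig cells to 16.97 to 22.9. Those of peritubular cells summed to 2.61 to 3.74, of macrophages to 2.68 to 5.45 and of spermatogonia to 12.5 to 17.8. The Leydig sum includes Insl3 in a row joined with Jak3 (7.86, 13.4, 13.5 and 12.6 CPM), which cannot be given to Insl3 alone. The 5 spermatid markers summed to 3.21 and 5.71 CPM in the Tdrd6+/- samples and 10.2 and 8.44 CPM in the Tdrd6-/- samples, of which Acrv1 made up most while Prm1 was counted 0, 0, 0 and 4 times, and the 5 spermatogonial markers summed to 12.5 and 13.4 against 17.3 and 17.8 CPM. These sums moved with the genotype, and their part in the results was not tested. In such bulk RNA, fewer cells of a type and less RNA per cell cannot be told apart.

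An intron is transcribed as part of the pre-mRNA and is cut out by the spliceosome, whose small nuclear ribonucleoproteins recognise both of its ends. In libraries of total RNA, intronic fragments come from pre-mRNA that is still unspliced, from introns that stay in the transcript and from other transcripts that start inside the intron. Fragments that cross an exon-exon junction come only from RNA from which the intron is gone. TDRD6 is a Tudor domain protein of male germ cells, and the study asked how its absence alters splicing in primary spermatocytes.

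The introns were numbered along the chromosome on both strands. For 9 of the 10 genes the number of deposited introns equalled the number of gaps between the exons of the GENCODE M21 annotation of mm10, so that positions could be given. Wdfy3 had 69 deposited introns against 68 annotated gaps and was left without positions. Where the exon ends on both sides are not in an untranslated region, they are shown as spliced RNA (GENCODE M21 transcripts, mm10, 5′ to 3′), since these are the joints whose fragments are compared with the intron. The last 15 bases of the upstream exon are in lower case and the first 15 bases of the downstream exon in capitals.
Dnhd1 intron 7: tccattcttcaactgATTCATGAAGACACA
Ndc1 intron 17: ttgactctgcaggagGCTGTCGACAAGTAC
Tmtc2 intron 6: ctgctcgccttaacaGGTCGTAAGAGTGAG
Ankrd60 intron 3: atttcctggaccgagGAATTCTGATGGATG
Gm14152 intron 6: tttcctgccttttagGTTCCTGGGTATCAC
Ccdc175 intron 17: gaatgaagttctgggTGCAAAGCAAGCAGA
Acot7, junction that skips the whole region around intron 3: catccagatctgccgGATCATGCGTCCAGA

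The listed introns differed in size and place. Intron 1 of Etl4 (chr2:19910280-20116972, plus strand) spans 206.7 kb and is the first intron and the longest of its gene. Intron 21 of Rgl1 (chr1:152675024-152765906, minus strand) spans 90.9 kb and is again the first in transcription and the longest. Intron 3 of Ankrd60 (chr2:173572623-173577989, minus strand, 5.37 kb) is also first and longest, of only 3 introns. Intron 17 of Ndc1 (chr4:107395833-107411065, plus strand, 15.2 kb) is the last but one of 18 and the longest, and intron 17 of Ccdc175 (chr12:72159980-72175055, minus strand, 15.1 kb) is the fourth of 20 in transcription and the longest. The other placed introns were not the longest of their genes. Intron 6 of Tmtc2 (chr10:105271581-105303593, minus strand) spans 32.0 kb, intron 7 of Dnhd1 (chr7:105668603-105673789, plus strand) 5.19 kb, intron 6 of Gm14152 (chr2:151420335-151425789, minus strand) 5.46 kb and intron 3 of Acot7 (chr4:152186386-152199809, plus strand) 13.4 kb. Thus 5 of the 9 placed introns were the longest of their gene. Among all 17885 placed introns with enough counts this share was 22.7%, among the introns lowered in Tdrd6-/- cells 61.4% and among those raised 10.1%, and the median lengths were 4225, 12346 and 2241 bases. The median normalised mean count was 174 for all introns with enough counts, 365 for the lowered and 265 for the raised ones, so the sets also differed in depth.

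Usage was measured as the intron count against the counts of all other introns of the gene. Across the series, 354 of 28903 introns were lowered (1.22%) and 207 were raised (0.716%), 1.94% in all, at a false discovery rate of 0.1, and the lowered introns fell in 336 genes, 319 of which had exactly 1. Ordered by p, the listed introns held places 3 (Wdfy3) to 31 (Rgl1) among the 354, and the intron just after Rgl1, intron 12 of C2cd6, had a log2 fold change of -1.15 ± 0.25 (SE) beside -0.73 ± 0.16 for Rgl1. These calls depended on single libraries. With the same DESeq2 test, 10 of 10 listed introns were below the false discovery rate with all samples, none when Tdrd6+/- replicate 1 was left out, 9 when Tdrd6+/- replicate 2 was, 10 when Tdrd6-/- replicate 1 was and 4 when Tdrd6-/- replicate 2 was, with log2 fold changes of -1.43 to -0.68. The edgeR usage test called none of the 10, with all 10 at an unadjusted p under 0.05, and only 2 introns in the whole series.

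The largest shares of intronic fragments were those of Ankrd60, Wdfy3 and Rgl1. Intron 3 of Ankrd60, a gene for a protein with ankyrin repeats, held 44.8%, 43.2%, 26.6% and 28.2% of the intronic counts of its gene. Intron 1 of Wdfy3, which codes for a large scaffold protein of selective autophagy, held 35.9%, 31.7%, 21.2% and 19.6%. Intron 21 of Rgl1, which codes for an exchange factor of Ral GTPases, held 24.5%, 24.5%, 15.9% and 16.9%. In each of the 3 genes both Tdrd6+/- samples were above both Tdrd6-/- samples, and the samples of a genotype lay close to each other. For introns chosen as lowered in these counts, this separation describes the choice, and its share over all introns was not determined. Log2 fold changes of usage were -1.05 ± 0.21, -0.99 ± 0.16 and -0.73 ± 0.16 (SE).

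Next came the long introns of Ccdc175 and Ndc1. Intron 17 of Ccdc175, a gene for a coiled-coil protein, held 22.8%, 20.1%, 12.4% and 10.6% of the intronic counts, from 355, 247, 146 and 101 fragments. Intron 17 of Ndc1, which codes for a membrane nucleoporin that anchors the nuclear pore complex, held 19.5%, 17.9%, 10.4% and 8.34%, from 343, 243, 139 and 88 fragments. In both genes the listed intron ranked 1 among the introns by mean share in the Tdrd6+/- samples and 3 in the Tdrd6-/- samples. Log2 fold changes were -1.07 ± 0.22 and -1.15 ± 0.22 (SE).

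In the remaining 5 genes the listed intron was a small part of the intronic signal. Intron 1 of Etl4, a gene known from the notochord and the intervertebral discs, held 11.4%, 11.0%, 4.47% and 5.50%. Intron 6 of Tmtc2, which codes for a mannosyltransferase of the endoplasmic reticulum, held 10.3%, 10.5%, 6.29% and 5.81%. Intron 7 of Dnhd1, a dynein heavy chain-like gene needed for the sperm flagellum, held 6.61%, 5.50%, 3.16% and 2.65%. Again the genotypes did not overlap in these 3 genes, which describes the choice as above. Intron 6 of the long noncoding RNA Gm14152 held 5.34%, 4.60%, 2.83% and 2.31%, and intron 3 of Acot7, which codes for a cytosolic acyl-CoA thioesterase, 4.48%, 4.73%, 2.40% and 2.17%. The log2 fold changes of these 5 introns were -1.29 ± 0.22 for Etl4, -0.85 ± 0.18 for Tmtc2, -1.10 ± 0.19 for Dnhd1, -0.99 ± 0.17 for Gm14152 and -1.05 ± 0.22 (SE) for Acot7.

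**Figure D1:**
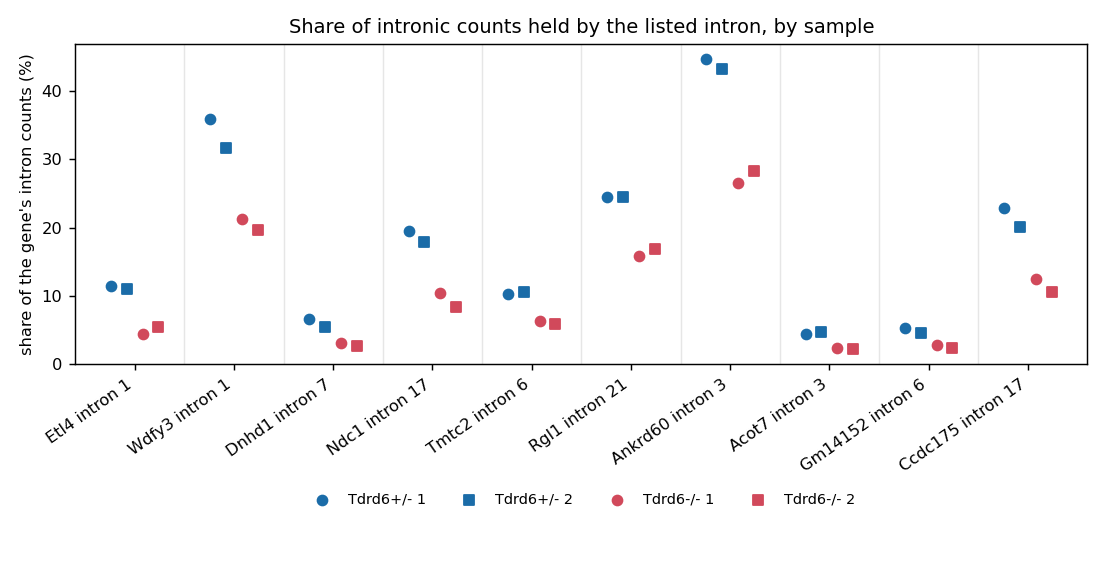
Share of the intronic counts of each gene (y axis, %) that fell on the listed intron, one point per sample (blue, Tdrd6+/-; red, Tdrd6-/-; circles, replicate 1; squares, replicate 2). In all 10 genes both Tdrd6+/- points lie above both Tdrd6-/- points, from Ankrd60 (44.8% and 43.2% against 26.6% and 28.2%) to Acot7 (4.48% and 4.73% against 2.40% and 2.17%). The introns were chosen as lowered in these counts, so this separation describes the choice.

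Few of the other introns of these genes were called. Of 222 others, 216 could be fitted and 83 had enough counts to pass the filter on the mean. Of these 83, 3 were raised and 1 was lowered, beside 0.716% and 1.22% of all introns. These calls depended on the reference. Fitted against the exonic count of the gene, none of 96 others was raised and 5 were lowered, beside 1% and 2.75% of all introns in that fit. The 5 were introns 8, 14, 18 and 20 of Ccdc175 (log2 fold changes -0.98 to -0.79), whose gene count was higher in the Tdrd6-/- samples, and intron 1 of Tmtc2 (-1.01 ± 0.27, SE). A lowered intron raises the share of the others by construction, so these values are given as description. The ones raised against the other introns were intron 2 of Ccdc175 (log2 fold change 1.17 ± 0.26; 90, 102, 160 and 146 fragments), intron 2 of Gm14152 (0.65 ± 0.17) and intron 13 of Tmtc2 (0.53 ± 0.16; all SE). Intron 2 of Gm14152 is 36843 bases long and held most of the intronic fragments of this RNA, 82.1% in the Tdrd6+/- and 87.9% in the Tdrd6-/- samples. Intron 13 of Tmtc2 was called in none of the 4 fits that left out a sample, and the introns of Ccdc175 and Gm14152 were called without Tdrd6+/- replicate 2 or Tdrd6-/- replicate 1 but not without Tdrd6+/- replicate 1 or Tdrd6-/- replicate 2.

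In Tmtc2 the values differed along the gene, with no test of an order. Its first 3 introns in transcription had log2 fold changes of 0.45 ± 0.17, 0.53 ± 0.16 and 0.60 ± 0.20 (SE). The fifth and eighth were at -0.06 and -0.16, the listed intron, the ninth, at -0.85, and the tenth and eleventh at -0.09 and -0.03. The last 3 had -0.49 ± 0.20, -0.37 ± 0.15 and -0.87 ± 0.26 (SE). The last of these, intron 1 by chromosome number, was the single other intron of the 10 genes called lower against the other introns with all samples, and was called in none of the 4 fits without a sample. With the replicate number as a block, 3 further introns were called lower, intron 20 of Rgl1 and introns 3 and 7 of Gm14152, of 103 others that passed the filter and beside 1.42% of all introns (1% higher). In Rgl1 the second intron in transcription, intron 20, was next to the listed one in place and in value, at -0.53 ± 0.19, whereas the 9 other tested introns of Rgl1 were between 0.05 and 0.59. In Gm14152 the introns before and after the listed one that passed the filter, introns 7 and 3, were at -0.45 ± 0.17 and -0.63 ± 0.20. In Wdfy3, intron 1 by chromosome number is the last in transcription, since the gene is on the minus strand, and the introns with the next largest shares were close by. Intron 4 was counted 539, 491, 502 and 411 times and intron 7 271, 247, 248 and 234 times, with shares of 11.7% and 5.87% in the Tdrd6+/- and 13.3% and 7.13% in the Tdrd6-/- samples, while intron 1 went from 1638 and 1350 to 863 and 561. The antisense gene Gm20548, annotated at this end of Wdfy3, had 3, 3, 3 and 8 counts. In Ndc1, Ankrd60 and Etl4 the lowest other tested introns were at -0.04, 0.45 and -0.15. Introns nearest the listed one had too few counts for the test in Etl4 and Ndc1. Introns 2, 3 and 4 of Etl4 were at -0.26 ± 0.30, -0.89 ± 0.74 and -0.82 ± 0.49 (SE). Introns 16 and 18 of Ndc1 were at -0.48 ± 0.46 and -0.22 ± 0.32 (SE). Each of these estimates was smaller than 2 SE.

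**Figure D2:**
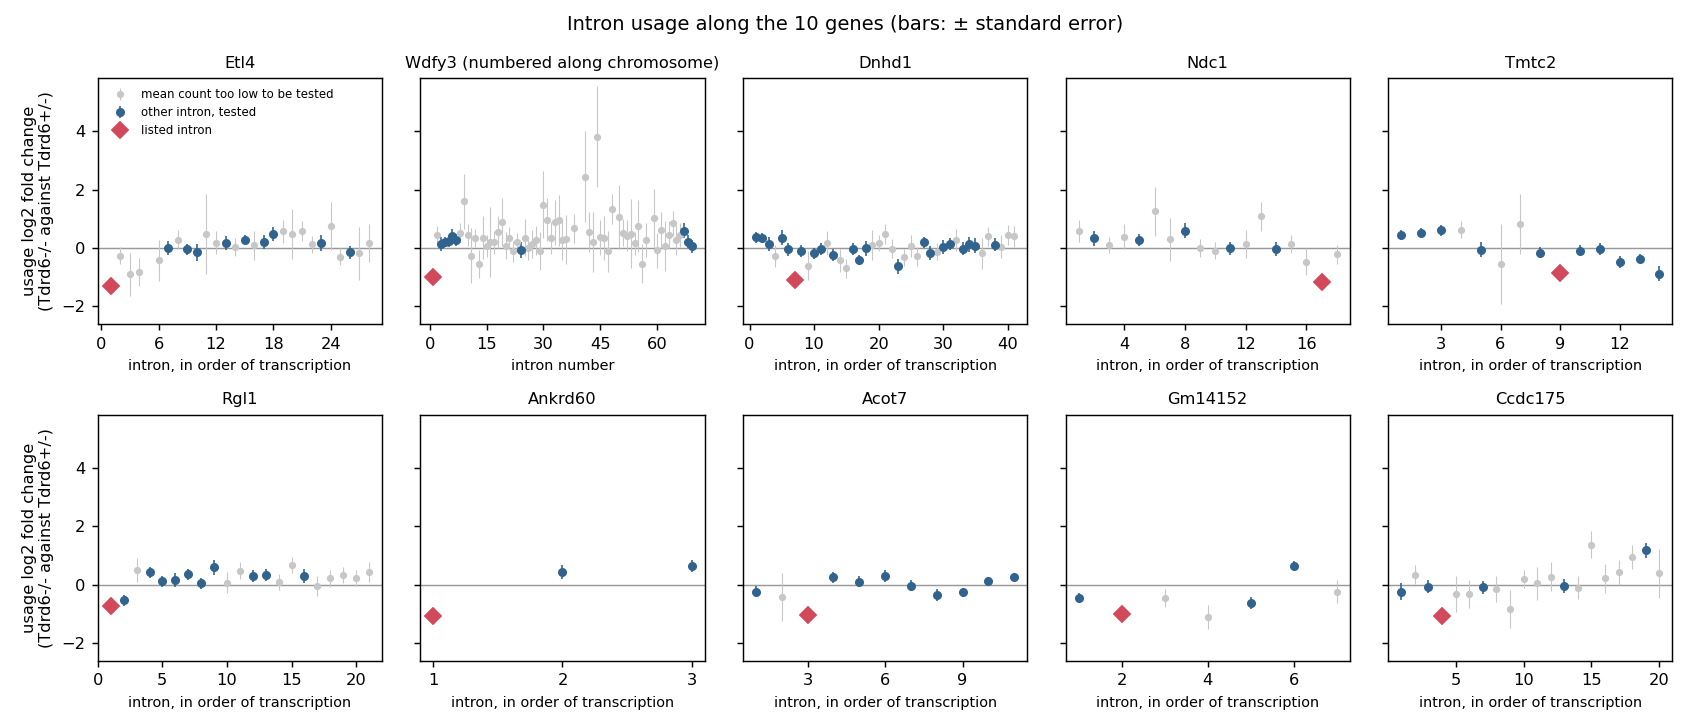
Log2 fold change of intron usage (y axis, Tdrd6-/- against Tdrd6+/-, bars ± SE) for every fitted intron of the 10 genes, in order of transcription (x axis; Wdfy3 in chromosome order). Red diamonds are the listed introns, blue points the other tested introns and grey points introns whose mean count was too low to be tested. The listed introns lie between -1.29 and -0.73, and most blue points lie near 0.

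The listed introns were also set against the gene instead of the other introns. The intron counts in this ratio are those that chose the genes, so low values describe the choice and are no further evidence. The ratio was intron CPM (of intronic counts) divided by gene CPM (of gene counts), on the log2 scale with 0.5 added to each count. The difference of this log2 ratio, Tdrd6-/- minus Tdrd6+/-, had a median of -0.92 over the 10 listed introns, from -1.57 in Ccdc175 to -0.34 in Rgl1. For the summed other introns of the same genes the median was 0.088, from -0.50 in Ccdc175 to 0.38 in Rgl1. For Dnhd1 the gene count is that of a row joined with the neighbouring gene Timm10b. Its values, -0.83 for the listed intron and 0.27 for the others, are thus not relative to Dnhd1 alone. The share of all tallied fragments on introns was 31.0%, 27.1%, 27.4% and 21.9%. With a single total per library for introns and genes, every difference shifted by -0.38. The listed introns then had a median of -1.30 and the other introns one of -0.29, with 9 of 10 genes below 0 in place of 4, so no direction is given for the other introns.

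Summed over the gene, the other introns of Dnhd1 had 645, 682, 551 and 596 CPM, lower in both Tdrd6-/- samples, and those of Wdfy3 had 210, 237, 248 and 240 CPM, higher in both. In Ndc1 the sum overlapped between the genotypes, at 102, 91.2, 92.4 and 101 CPM. The CPM of the listed intron of Ndc1 was 24.6, 19.8, 10.7 and 9.16.

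Read per sample, the log2 ratio of the listed intron to the gene count was -1.61, -1.99, -3.35 and -3.40 in Ccdc175. In Acot7 it was -4.13, -3.99, -5.29 and -5.27, and in Ankrd60 -1.08, -1.13, -2.36 and -2.06. The genotypes did not overlap in these genes, and the intron counts used here are those that chose them. In Rgl1 the values were -0.37, -0.40, -0.68 and -0.78, the smallest gap of the 10, and in Etl4 they were -0.47, -0.11, -1.54 and -0.93, the widest spread between replicates.

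**Figure D3:**
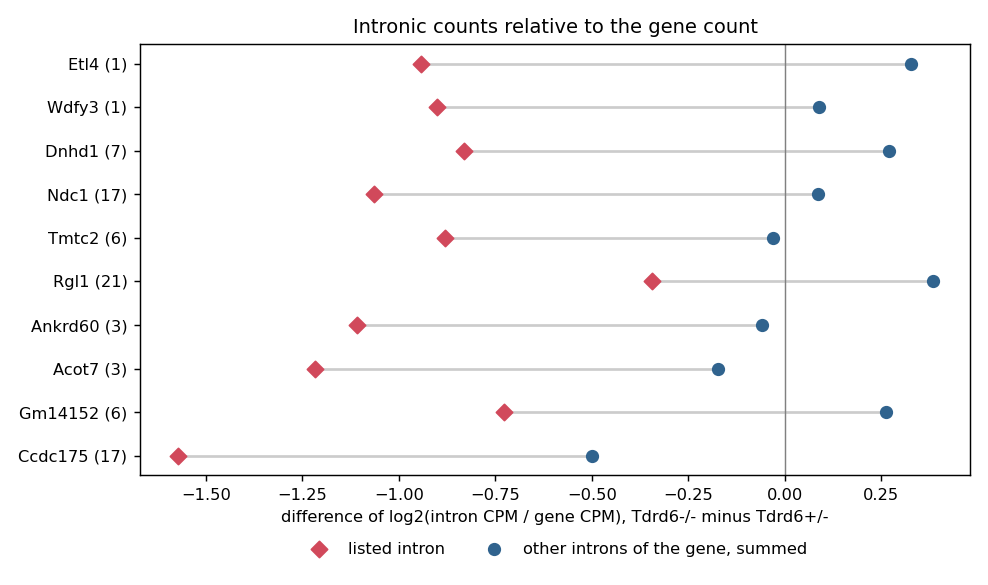
Difference in the log2 ratio of intron CPM to gene CPM, Tdrd6-/- minus Tdrd6+/- (x axis), for the listed intron (red diamonds, intron number in brackets) and for all other introns of the gene summed (blue points). The red diamonds lie between -1.57 and -0.34 and the blue points between -0.50 and 0.38. The red diamonds use the intron counts that chose the genes, and the gene count of Dnhd1 is that of a row joined with Timm10b.

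The signal per length separates the genes further. On the scale of intronic CPM per kb, intron 6 of Gm14152 went from 19.4 to 10.1 (means of 2 samples) and intron 7 of Dnhd1 from 8.23 to 3.30. Intron 1 of Etl4, the longest, went from 0.101 to 0.0542 CPM per kb, beside 0.246 and 0.324 for the rest of the introns of Etl4. The listed intron was thinner per kb than the other introns of its gene together in 7 of the 9 placed genes. How often this holds over all introns was not determined. The exceptions in the Tdrd6+/- samples were Tmtc2 (1.26 against 0.996) and Ccdc175 (1.51 against 1.26), and both were below the other introns in the Tdrd6-/- samples (0.695 against 0.988 and 0.723 against 1.28).

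At the level of the whole gene, the question was whether the genes themselves were expressed differently. Of the 10 genes, 2 passed edgeR's quasi-likelihood test at the false discovery rate of 0.1, 1 in each direction, beside 4.8% of all 16555 genes tested (1.02% higher, 3.78% lower). Ccdc175 was counted 2065, 2349, 3512 and 3511 times, which is 78.1, 80.3, 115 and 112 CPM. Both Tdrd6-/- samples were above both Tdrd6+/- samples, with a log2 fold change of 0.44 ± 0.13 (SE, adjusted p = 0.080, edgeR), while the intron listed for it fell from 355 and 247 to 146 and 101 fragments. The row that holds Dnhd1 was counted 29667, 34712, 27446 and 23741 times, with a log2 fold change of -0.56 ± 0.13 (SE, adjusted p = 0.019, edgeR). The deposited files join Dnhd1 with the neighbouring Timm10b, a gene for a mitochondrial import protein, in this row, so the change cannot be given to a single gene.

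These 2 calls did not hold in every fit. Ccdc175 was not called without Tdrd6+/- replicate 1 (adjusted p = 0.19), Tdrd6-/- replicate 1 (0.32) or Tdrd6-/- replicate 2 (0.46; all edgeR), with log2 fold changes of 0.40, 0.43 and 0.45. The Dnhd1 row was not called without Tdrd6-/- replicate 2 (log2 fold change -0.45, adjusted p = 0.42, edgeR). Gm14152, at -0.30 ± 0.14 with all samples (adjusted p = 0.35, edgeR), was called lower only without Tdrd6+/- replicate 2 (-0.45, adjusted p = 0.089).

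For the other 7 genes no difference passed the test. Ndc1 was counted 1791, 1849, 1901 and 1913 times (log2 fold change -0.17 ± 0.14). Wdfy3 was counted 7009, 6305, 7891 and 7276 times (-0.05 ± 0.13) and Acot7 7305, 9361, 10375 and 11281 times (0.15 ± 0.13). Their libraries differ in depth, and in CPM the genotypes overlapped in Wdfy3 and differed by less than 2 SE in all 3 genes. Ankrd60 had 46.5, 52.3, 53.3 and 62.0 CPM (0.14 ± 0.15), Tmtc2 26.9, 27.5, 29.4 and 25.3 CPM (-0.08 ± 0.16) and Etl4 25.0, 25.8, 37.0 and 18.6 CPM (0.04 ± 0.22). Etl4 had the Tdrd6-/- samples on either side of the Tdrd6+/- samples. Rgl1 had 110, 110, 95.3 and 91.2 CPM, both Tdrd6-/- samples lower, and missed the threshold (-0.32 ± 0.13, adjusted p = 0.24, edgeR). The median log2 fold change of the 10 genes was -0.06 and that of all genes tested 0.01.

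**Figure D4:**
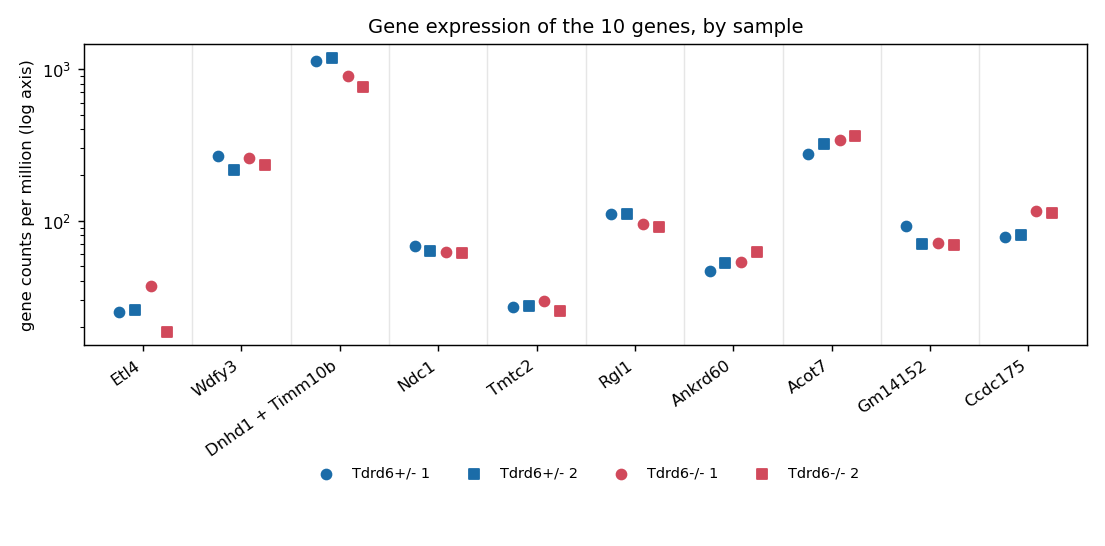
Gene CPM (y axis, log scale) of the 10 genes, one point per sample (blue, Tdrd6+/-; red, Tdrd6-/-; circles, replicate 1; squares, replicate 2). Only Ccdc175 (higher) and the joined row of Dnhd1 and Timm10b (lower) passed the test, and the red Etl4 points, 37.0 and 18.6, lie on either side of the blue ones.

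Exon segments and junctions were then tested one by one against the rest of their gene. The 10 genes have 653 such features, of which 208 in 9 genes passed the filter on the mean (134 exon segments and 74 junctions). None was called by the DESeq2 likelihood ratio test, beside 0.221% of all 147710 features (0.148% higher and 0.0731% lower, with 0.28% of exon segments and 0.107% of junctions), with 11 of 437 fitted features at an unadjusted p under 0.05. The edgeR usage test also called none and had 11 at an unadjusted p under 0.05. The smallest adjusted p was 0.997 with DESeq2 and 0.94 with edgeR, and the median log2 fold change over the 208 was 0.0058, beside 0.016 over all features. Exons and junctions of the Dnhd1 row had been left out, as a joined row. With joined rows kept in the fit, exon segment 19 of its 86 was called higher (263, 255, 295 and 398 fragments; log2 fold change 0.75 ± 0.20, SE, adjusted p = 0.066, DESeq2). This alternative was added after the data had been seen, and the gene to which the segment belongs was not determined.

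For 7 genes the deposited exon segments and junctions could be placed, and the features beside the listed intron could be read directly. In 5 of them the junction that removes exactly the listed intron had reads. In Ndc1 this junction, which joins the exon ends shown above, was counted 62, 85, 103 and 92 times while the intron was counted 343, 243, 139 and 88 times. In Ankrd60 the junction was counted 144, 184, 192 and 235 times and the intron 307, 293, 134 and 142 times. In Ccdc175 the junction was counted 88, 80, 148 and 150 times against 355, 247, 146 and 101 for the intron. In these 3 genes the Tdrd6-/- samples had more junction counts and fewer intron counts than the Tdrd6+/- samples, in raw numbers. Gene totals were also higher in both Tdrd6-/- libraries (26454326, 29253182, 30486157 and 31388750 counts). As a share of the gene count, the junction held 3.46%, 4.60%, 5.42% and 4.81% in Ndc1. It held 11.7%, 12.0%, 11.8% and 12.1% in Ankrd60 and 4.26%, 3.41%, 4.21% and 4.27% in Ccdc175. The genotypes overlapped in this share in Ankrd60 and Ccdc175 but not in Ndc1. In Gm14152 the counts were 168, 132, 173 and 182 for the junction and 1662, 1129, 757 and 494 for the intron. In Tmtc2 they were 36, 39, 50 and 43 against 564, 489, 344 and 172. As a share of the gene count, the junction held 6.90%, 6.38%, 8.01% and 8.38% in Gm14152. It held 5.06%, 4.84%, 5.58% and 5.42% in Tmtc2. In both genes, as in Ndc1, both Tdrd6-/- samples were higher in this share and in raw junction counts. The share of all junctions without such overlap was not determined. A second junction over the interval also removes the listed intron of Gm14152 (67, 83, 94 and 80 counts) and of Ankrd60 (8, 9, 18 and 19 counts). These second junctions are left out of the values per junction count below, which would be lower with them.

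Per junction count, the intron counts were 5.53, 2.86, 1.35 and 0.957 in Ndc1. They were 4.03, 3.09, 0.986 and 0.673 in Ccdc175 and 2.13, 1.59, 0.698 and 0.604 in Ankrd60. They were 9.89, 8.55, 4.38 and 2.71 in Gm14152 and 15.7, 12.5, 6.88 and 4.00 in Tmtc2. The values of the genotypes did not overlap in any of the 5 genes. Both counts in this ratio are raw. Whole libraries held 13937818, 12258600, 12953528 and 9603669 intronic counts and 13943418, 16050056, 16629189 and 17466582 junction counts. Tdrd6-/- replicate 2 thus had the fewest intronic and the most junction counts, and the ratio was not corrected for this. The share of all introns without such overlap was not determined. The levels of different genes are not comparable, since a longer intron collects more fragments and a junction has the same width in all. The intron counts in this ratio are those that chose the genes.

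**Figure D5:**
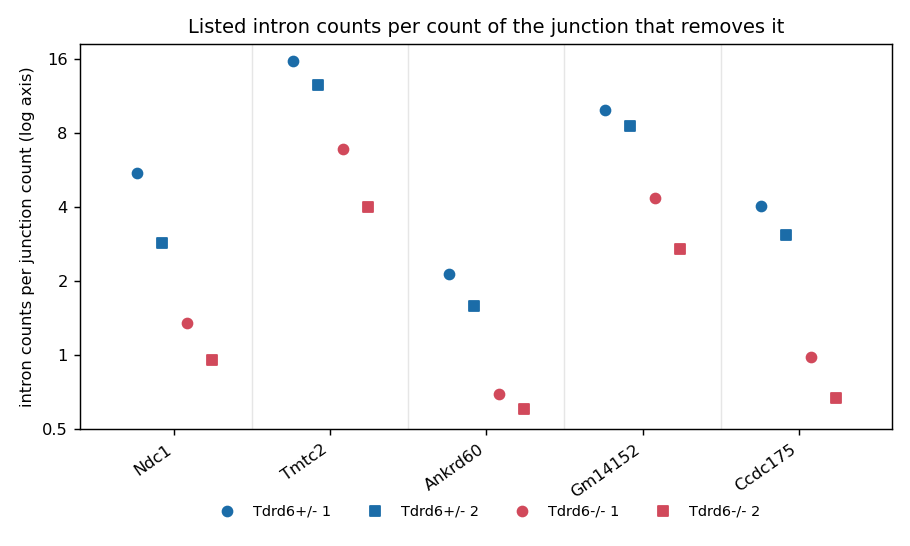
Raw counts on the listed intron per raw count on the junction that removes exactly this intron (y axis, log scale). Each point is a sample (blue Tdrd6+/-, red Tdrd6-/-, circles replicate 1, squares replicate 2), for the 5 genes with such a junction. A second junction over the intron in Gm14152 and in Ankrd60 is left out. In each gene both red points lie below both blue points, as in Ndc1 (5.53 and 2.86 against 1.35 and 0.957).

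Relative to the rest of the gene, none of these 5 junctions passed the test. Log2 fold changes of junction usage were 0.36 ± 0.26 for Ndc1, 0.33 ± 0.19 for Gm14152, 0.16 ± 0.34 for Tmtc2, 0.16 ± 0.22 for Ccdc175 and 0.01 ± 0.18 (SE) for Ankrd60. Each of the 5 estimates was smaller than 2 SE, so no direction is given for them. The exon segments on either side of the listed intron had log2 fold changes of 0.10 ± 0.19 and 0.22 ± 0.20 in Ndc1, -0.12 ± 0.24 and -0.05 ± 0.26 in Tmtc2, and -0.05 ± 0.15 and 0.04 ± 0.13 in Ankrd60. In Gm14152 they were 0.07 ± 0.13 and 0.17 ± 0.14 and in Ccdc175 0.12 ± 0.16 and -0.03 ± 0.15 (SE). Thus no change of the exons next to the intron was detectable at this depth. The junction of Tmtc2, at 36 to 50 counts, was below the mean needed for the test.

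Etl4 and Acot7 were of another kind. The listed intron of Etl4 is spliced by 1 of its 20 annotated transcripts, Etl4-207. Its junction was counted 0 times in all 4 samples, which allows up to 3 counts per library, and the exon segments before and after it had 1, 4, 2 and 0 and 0, 0, 0 and 0 counts. The interval itself was counted 251, 293, 165 and 93 times. So the fragments on this 206.7 kb interval came with at most 4 fragments per sample on the exons that border it. The interval holds a small nucleolar RNA gene and 3 processed pseudogenes, with 0 to 3 counts each.

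In Acot7 no annotated transcript splices the listed interval as it stands. It lies inside a 28.4 kb intron (chr4:152178341-152206763) between the exon ends shown above, whose junction was counted 648, 749, 825 and 889 times and was not called (log2 fold change -0.10 ± 0.11, SE, adjusted p = 1, DESeq2). The other junctions over the interval had 0 counts in all 4 samples. The exon segment just before the interval was counted 14, 13, 6 and 5 times and the one after it, where transcript Acot7-203 starts, 6, 7, 4 and 2 times. Both were higher in both Tdrd6+/- samples, and neither reached the mean count needed for the test. The deposited introns 1, 2, 3 and 4 of Acot7 all lie within this 28.4 kb intron, and 3 of them had enough counts. Intron 1 had a log2 fold change of -0.24 ± 0.19 (296, 308, 230 and 219 fragments) and intron 4 one of 0.25 ± 0.20 (217, 255, 267 and 218), beside -1.05 ± 0.22 (SE) for intron 3 with 219, 246, 112 and 89 fragments. The parts of a single spliced intron thus differed in their values.

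In the other genes the exon segment and the junction with the smallest p are given for completeness. In Wdfy3 these were exon segment 16 (51, 62, 38 and 33 counts; log2 fold change -0.87 ± 0.34) and junction 137 (2, 11, 0 and 1 counts), both too thinly covered for the adjusted test. In Rgl1 they were exon segment 16 (296, 366, 303 and 240 counts; -0.22 ± 0.16) and junction 43 (97, 121, 89 and 76 counts; -0.32 ± 0.24), and in Etl4 exon segment 26 (7, 6, 21 and 16 counts; 1.30 ± 0.67) and junction 74 (6, 2, 12 and 8 counts; 1.12 ± 0.89, SE). Gm14152 had exon segment 11 (479, 361, 474 and 472 counts; 0.29 ± 0.14) and junction 22 (220, 164, 240 and 227 counts; 0.38 ± 0.17). Ccdc175 had exon segment 2 (202, 222, 383 and 396 counts; 0.23 ± 0.15) and junction 24 (87, 107, 194 and 198 counts; 0.36 ± 0.20). None of these passed the adjusted test. For Ndc1, Tmtc2, Ankrd60 and Acot7 the smallest p of an exon segment or junction was between 0.017, for exon segment 3 of Acot7 (8, 10, 0 and 4 counts), and 0.41, for exon segment 4 of Ankrd60 (25, 37, 35 and 28 counts).

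Genes annotated inside a listed intron can add fragments to it. Of the 9 placed introns, 6 hold no other annotated gene. In Rgl1 the interval holds Gm7278, a processed pseudogene with 53, 47, 27 and 33 counts (log2 fold change -0.97 ± 0.35, SE, adjusted p = 0.17, edgeR), and Gm15479 with 16, 11, 11 and 4 counts, both on the strand of Rgl1. On the other strand it overlaps Apobec4, with 20, 35, 61 and 60 counts (0.91 ± 0.36, SE, adjusted p = 0.22, edgeR). The intron itself was counted 1181, 1026, 769 and 509 times, and the part of these genes in it was not tested. Dnhd1 intron 7 also lies within the gene model Gm45799, and Rgl1 intron 21 holds the gene model Gm28792. Neither model has a row in the files, and their part in the intron counts was not tested.

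Relatives and partners of the 10 genes were followed as a list of 27 genes, chosen for family or complex. Of 26 tested, 7 were lower and none was higher by edgeR's test, with 2 higher at an unadjusted p under 0.05, beside 3.78% lower and 1.02% higher among all genes. The DESeq2 Wald test also called 7 lower and none higher. The strongest was Pom121, which codes for a membrane nucleoporin like Ndc1, with 103, 116, 58.0 and 48.0 CPM (log2 fold change -1.13 ± 0.14, SE, adjusted p = 5.1e-05, edgeR). Dnah8 and Dnah1, which code for dynein heavy chains of the axoneme, were at -0.63 ± 0.14 (adjusted p = 0.013) and -0.57 ± 0.14 (adjusted p = 0.021, both edgeR), and all 4 dynein heavy chains on the list were lower. Wdfy4, a relative of Wdfy3, was at -0.50 ± 0.13 (SE, adjusted p = 0.040, edgeR). Without Tdrd6-/- replicate 2, Pom121 alone of the 7 stayed below the threshold (adjusted p = 0.00095, edgeR). Of the other nuclear pore genes (7 tested), the 5 other acyl-CoA thioesterases, the Rgl family and Wdfy1 and Wdfy2, none passed. In the introns of these 27 genes, 1 of 302 with enough counts was lowered, beside 1.22% of all introns.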

How the data were processed

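RNA of 4 samples (2 Tdrd6+/-, 2 Tdrd6-/-) was analysed, grouped by the genotype and replicate number in the sample titles. The authors aligned paired-end fragments to mm10 with GSNAP and annotated them with Ensembl v75. The submitters' processing notes name bcl2fastq 1.8.4, and the counting program is not given in the sources used here. The deposited values are counts that were not normalised: 1 file per sample gives fragments per numbered intron and the other gives counts per gene, exon segment and junction, where overlapping genes can share a joined row. The library kit marks strand, but whether strand was used in counting is not given in the sources used here.

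Positions came from GENCODE M21 (mm10), by order, for genes in which deposited and annotated numbers were equal. In place of DEXSeq and JunctionSeq, which were not used here, DESeq2 1.42.0 (R 4.3.3) was run with the same model on all features with at least 10 counts: a feature against the rest of its gene, likelihood ratio test, independent filtering (mean normalised count above 85.6 for introns and 53.4 for exons and junctions), Benjamini-Hochberg adjustment and a false discovery rate of 0.1. Gene counts were analysed by the quasi-likelihood test of edgeR 4.0.16, with TMM factors and filterByExpr. All tests are two-sided. The scripts were tested on simulated data. Single values were not tested, since 2 samples against 2 cannot give an exact permutation p below 0.33. Nothing in the sources ties the samples to separate litters, so p-values measure the spread between these pools. Depth was 43778449 to 47221554 fragments per sample, with intron totals of 9603669 to 13937818 and gene totals of 26454326 to 31388750. Zero counts allow up to 3 counts, which covers counting error only.

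The members and lists were chosen with earlier results of these data known. Named were all 10 genes, their listed introns, other introns that were called, the exon segments and junctions that were called, next to the listed intron or of smallest p, and at most 4 called relatives per direction. Alternatives were other tools, normalisations, filters, references, a replicate block and leaving out each sample, and 1 (joined rows kept) was chosen after seeing the data.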

Additional observations from a re-analysis of the deposited data

How the results depend on the processing

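With 2 samples per genotype, calls depended on the fit. The listed introns were chosen as lowered in these libraries, so their sign in refits of the same counts bears on nothing. Of the 10 listed introns, 0 were called with the edgeR usage test and 0 to 10 when a sample was left out. Of the 10 genes, 0 were called with no filter on low counts and 0 to 3 when a sample was left out, and of the relatives 1 and 1 to 8. Joined rows kept in the fit gave 1 called exon segment in place of 0, and 0 was the count in all other exon and junction fits. The median log2 ratio of listed intron to gene was -1.30 with a single total per library and -0.98 to -0.93 when a sample was left out. Against the exonic count of the gene, 9 of the 10 listed introns were called (all but Rgl1), and of the other introns of these genes 0 were raised and 5 lowered, in place of 3 and 1. The cause was not tested, except that the fit with no filter tests more genes (26309 in place of 16555). Without a filter, 75 genes of the series were called in place of 794, and without Tdrd6-/- replicate 2, 257. For introns of the series, 561 calls became 2 with the edgeR usage test, 1284 against the exonic count, and 4 to 1175 without a sample, and for exons and junctions 327 became 81 with the edgeR usage test and 51 to 763 without a sample. With the replicate block, 2 of the 10 genes, 8 relatives (adding Tmtc1), 0 exon segments or junctions and 10 listed introns were called, with 4 other introns of these genes lowered in place of 1, and 881 introns in the series. The replicate numbers are not shown to pair the samples, since deviations of same-numbered samples correlated at -0.10 over genes and 0.05 over introns. A mean count under 85.6 for introns or 53.4 for exons and junctions was too low for an adjusted test.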
